A study of Mus musculus with 2 samples.

Results

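The blood endothelial cells described here were 529 cells of the wild-type mouse colon with a Pecam1 value of at least 3, an Epcam value under 5, an Rgs5 value under 10 and a Lyve1 value under 3. They made up 7.06% of the 7495 cells of that library and 11.8% of its 4487 cells with Epcam under 5 (95% confidence interval 10.9% to 12.8%). The whole series holds 11904 cells in 2 libraries. The other 3958 cells with Epcam under 5 are the comparison throughout, and are called other Epcam-low cells. Pecam1 encodes the adhesion molecule CD31 of endothelial junctions, Epcam an epithelial adhesion molecule, Rgs5 a regulator of G-protein signalling that marks pericytes, and Lyve1 the hyaluronan receptor of lymphatic endothelium.

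The wild-type library came from the colon of 3 female C57BL/6 mice, 8 to 12 weeks old, whose cells were pooled. Epithelial cells (EpCAM-positive, CD45-negative) and mesenchymal cells (EpCAM-negative, CD45-negative) were sorted separately and mixed in equal parts, so the shares of cells follow the sort and not the tissue, and leukocytes were sorted out. The second library held GFP-positive mesenchymal cells of 3 female Pdgfra-H2B-eGFP mice, a reporter line with a nuclear green fluorescent protein expressed from the Pdgfra locus, and was made with the earlier V2 kit in place of V3. Neither library assigns cells to mice, so each condition is 1 sample. No p-value is therefore given, intervals are exact binomial (Clopper-Pearson) intervals that cover counting error only, and a gene is called higher or lower where its mean differed by at least 2-fold. Expression is given as corrected counts averaged over cells, on the scale to which the deposited values had been brought, and a log2 ratio compares 2 such means after adding 0.01 to each.

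Blood endothelial cells line arteries, capillaries and veins. In the colon the capillaries under the epithelium are fenestrated, with pores closed by diaphragms that the protein Plvap builds, and the venules are where leukocytes leave the blood by way of selectins, chemokine carriers and addressins such as MAdCAM-1, the ligand of the gut-homing integrin of lymphocytes. Vascular endothelial growth factor (VEGF) from neighbouring cells acts on the receptors Flt1 and Kdr, Notch signalling separates arterial from venous fate, and endothelial PDGF-B recruits pericytes. ETS-family transcription factors, which bind GGAA, act at many endothelial genes.

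The promoters of 4 shared endothelial genes are shown because these genes had the largest ratios among those with a promoter entry, leaving out Pecam1, which chose the cells. Each sequence is the upstream part of a RefSeq promoter window of build GRCm38.p6, cut before the first annotated exon within the window. It is written 5′ to 3′ on the gene's strand, with GGAA and its reverse complement TTCC in capitals. The Emcn window spans chr3:137340828-137341066 (plus strand) and that of Egfl7 chr2:26580833-26581055 (plus strand, the most upstream of 3 starts). That of Flt1 spans chr5:147726012-147726261 (minus strand) and that of Adgrl4 chr3:151437632-151437881 (plus strand). The gene annotation has Egfl7 begin further upstream, at 26580014, so its window lies inside the annotated gene.
Emcn: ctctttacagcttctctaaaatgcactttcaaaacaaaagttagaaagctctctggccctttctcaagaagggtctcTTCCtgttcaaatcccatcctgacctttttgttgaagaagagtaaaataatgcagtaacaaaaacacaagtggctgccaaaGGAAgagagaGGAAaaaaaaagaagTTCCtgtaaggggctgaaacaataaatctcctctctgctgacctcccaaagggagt
Egfl7: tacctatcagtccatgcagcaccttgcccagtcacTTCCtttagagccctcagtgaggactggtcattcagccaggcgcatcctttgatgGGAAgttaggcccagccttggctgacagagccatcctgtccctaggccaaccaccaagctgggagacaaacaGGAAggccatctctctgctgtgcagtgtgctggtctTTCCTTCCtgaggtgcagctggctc
Flt1: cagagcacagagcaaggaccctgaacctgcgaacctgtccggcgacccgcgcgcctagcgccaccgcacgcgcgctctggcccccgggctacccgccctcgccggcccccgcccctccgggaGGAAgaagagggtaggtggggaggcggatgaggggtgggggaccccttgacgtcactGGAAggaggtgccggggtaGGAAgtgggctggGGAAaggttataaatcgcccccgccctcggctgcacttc
Adgrl4: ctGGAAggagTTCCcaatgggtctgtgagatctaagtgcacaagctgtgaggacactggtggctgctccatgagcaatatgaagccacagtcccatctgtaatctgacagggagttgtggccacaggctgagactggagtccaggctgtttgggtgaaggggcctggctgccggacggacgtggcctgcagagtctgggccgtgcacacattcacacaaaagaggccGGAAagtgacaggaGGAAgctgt
On both strands together, GGAA occurred 4 times in the Emcn, Flt1 and Adgrl4 windows and 5 times in that of Egfl7. The 4 letters are common: of 32851 promoters cut to the same length, 93.4% held GGAA at 250 bases, 92.6% at 239 and 91.3% at 223. At least 4 matches were found in 33.4% of windows of 250 bases, 30.2% of 239 and 25.9% of 223. The longer motif AGGAAG, which contains GGAA, occurred 2 times in the Emcn and Flt1 windows, 3 times in that of Egfl7 and 1 time in that of Adgrl4, against a share of 29.5% of all windows of 250 bases with at least 1 match, 28.3% of 239 and 26.4% of 223. The GATA motif AGATAA was found in none of the 4 windows, and in 9.99% of all windows of 250 bases. Of the 19 shared endothelial genes other than Pecam1, 14 had an entry.

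The values that chose the cells spread widely within their limits. Pecam1, on chromosome 11 of GRCm38 from 106654217 to 106750628, ranged from 3 to 34 with a median of 9 (quartiles 6 and 13). Rgs5 was at 0 in 459 of the 529 cells and Lyve1 in 520. Epcam ranged from 0 to 4 and was above 0 in 70.1% of the cells.

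Of the 5 markers given for these cells, the 4 that played no part in the choice were all higher than in the other Epcam-low cells. Flt1, a VEGF receptor (chromosome 5, 147561604 to 147726011), had a median of 10 (quartiles 5 and 15, highest value 39) and was above 0 in 95.1% of the cells (92.9% to 96.8%), against 5.20% of the other cells. Emcn, which encodes the sialomucin endomucin (chromosome 3, 137341067 to 137432185), had a median of 5 and was above 0 in 92.2%, against 5.05%. Kdr, the main signalling receptor for VEGF-A (chromosome 5, 75932827 to 75978458), had a median of 5 and was above 0 in 82.2%, against 4.93%. Flt1 and Emcn were thus found in nearly all of these cells, and Kdr was missing from more of them. Esm1, a secreted proteoglycan of capillary sprouts (chromosome 13, 113209659 to 113218098), had a median of 0 and an upper quartile of 5, and was above 0 in 49.0% (44.6% to 53.3%), against 2.75%. The epithelial gate held the 3008 cells with Epcam of at least 5 (median total 9648). There the shares above 0 were 2.29% for Flt1, 1.76% for Emcn, 1.66% for Kdr and 1.26% for Esm1. In that gate 33 cells met the Pecam1, Rgs5 and Lyve1 limits, so these shares are no clean background.

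The label also held cell by cell. A list of 20 genes that blood and lymphatic endothelium share was used without Pecam1. Of the other 19 genes, a blood endothelial cell had a median of 15 above 0, and 518 of the 529 cells (97.9%, 96.3% to 99.0%) had at least 5. Among the other Epcam-low cells the median was 1, and 213 (5.38%) had at least 5. Of these 213 cells, 120 carried both Pecam1 and Rgs5 over the limits, 27 carried Lyve1, and 37 fell in no gate. The 11 blood endothelial cells with fewer than 5 of the genes are named here because they go against the label: 1 of them had a Ptprc value of 10, a Cd74 value of 652 and none of the 19 endothelial genes. Ptprc encodes the leukocyte antigen CD45 and Cd74 the invariant chain of MHC class II, and no other cell of the 529 had Ptprc above 0.

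**Figure D1:**
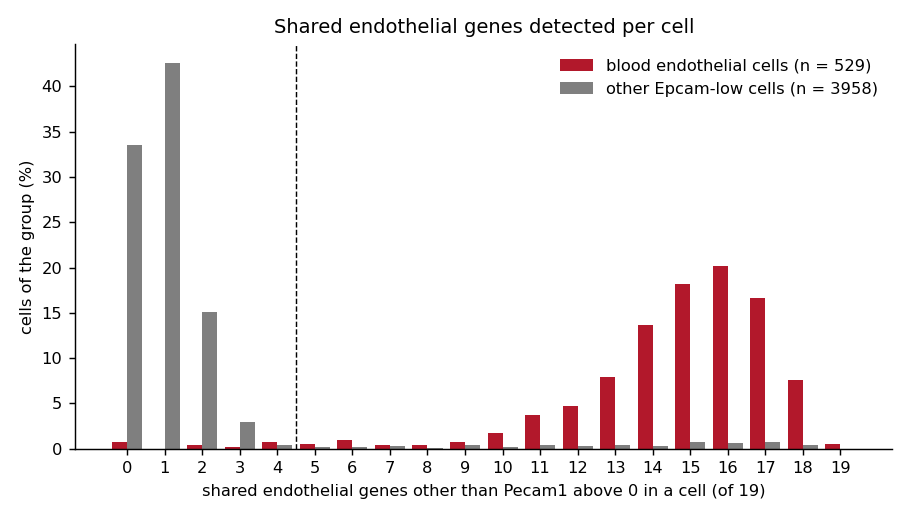
Number of shared endothelial genes other than Pecam1 above 0 in a cell (x axis, of 19) against the percentage of cells (y axis), for the 529 blood endothelial cells (red) and the 3958 other Epcam-low cells (grey); the dashed line separates cells with at least 5 genes. The red bars centre on 15 genes and the grey bars on 1, with 213 grey cells to the right of the line.

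The values change gradually at the Pecam1 limit. The 38 cells with Pecam1 at 3, just inside, had a median of 13.5 of the 19 genes, and 32 of them had at least 5. The 19 cells with Pecam1 at 2, just outside, had a median of 10, and 14 had at least 5. Of the 47 cells with Pecam1 at 1, 3 had at least 5, and of the 3505 with Pecam1 at 0, 24 did. The Rgs5 limit left out 17 cells with values of 10 to 14, whose mean for Notch3, a Notch receptor of mural cells, was 1.35, against 0.160 in the 25 cells just inside with values of 5 to 9. Only 1 cell lay just outside the Lyve1 limit and 4 just outside the Epcam limit. Of all 33 cells with Epcam of at least 5 that met the other limits, 31 had at least 5 of the 19 genes.

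In the reporter library no cell of 4409 had Pecam1 at 3 or more, which allows a share of up to 0.0680%. Pecam1 was above 0 there in 27 cells (0.612%), with a highest value of 2. The total per cell in that library had a median of 3150, against 8972 in the wild-type library, so the limits do not mean the same in both. Emcn, Cdh5 and Lyve1 were not analysed there. The libraries shared 1 cell barcode, and it belonged to a blood endothelial cell.

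Against the other Epcam-low cells, 1245 of 14424 genes were at least 2-fold higher in blood endothelial cells, a background of 8.63 percent of genes, and 2514 were at least 2-fold lower, 17.4 percent. Over all genes the median log2 ratio was -0.21. Since the cells were chosen by Pecam1, these counts describe the gate and test nothing. At 4-fold, 520 genes were higher and 959 lower, and 70 genes were at least 16-fold higher. Of the genes called at 2-fold, 33.1% were higher. That share was 49.8% (102 higher, 103 lower) on the mean of the natural log values and 43.5% (702 higher, 912 lower) with a pseudocount of 0.1. Blood endothelial cells had a median of 2076 genes above 0 and a total of 7938, against 2583.5 genes and 8381 in the other cells, so shares above 0 start from a slightly lower depth.

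The gene with the largest ratio among those found in at least 20% of the cells was Slco2a1, a prostaglandin transporter, with a mean of 5.05 against 0.105 (log2 ratio 5.46). Tmem252, a membrane protein, followed with 2.24 against 0.0505 (5.21). Both were uneven among the cells, since Slco2a1 was above 0 in 64.3% and Tmem252 in 35.3%. Plvap, the diaphragm protein of fenestrae (chromosome 8, 71497765 to 71511752), had a mean of 27.6 against 0.931 (4.88), and was above 0 in 95.3% of the cells with quartiles of 17 and 37. Fabp4, a fatty acid-binding protein (chromosome 3, 10204088 to 10208576), had a mean of 38.9 against 1.29 (4.90). Its quartiles were 12 and 57 and its highest value was 209. These genes differed in how evenly they were spread, with Plvap high in nearly every cell. Among the leading 30 genes, Lrg1 (a leucine-rich glycoprotein, log2 ratio 4.99), Aqp1 (a water channel, 4.84), Vwf (von Willebrand factor, 4.64) and Esm1 (4.55) had a median of 0 in the cells, as did Tmem252 and the transcript AU021092 (4.55). Ctla2a, Grrp1, Tmem255b, Adgrg1, Upp1, Plscr2, Thrsp, Myct1 and Cd93 were also among the 30, with log2 ratios of 4.37 to 4.81.

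All 20 shared endothelial genes were higher, with a median log2 ratio of 4.30, or 4.22 without Pecam1. They include Cdh5, the cadherin of endothelial junctions, with a mean of 4.54 against 0.202 (4.42), and Egfl7, a secreted matrix protein, with 8.59 against 0.342 (4.61). Ptprb, the phosphatase that holds the Tie2 receptor in check, had 5.56 against 0.225 (4.57), and Adgrl4, an adhesion receptor, 2.77 against 0.112 (4.51). The smallest ratio of the list was that of Eng, the TGF-beta co-receptor endoglin, with 5.04 against 0.817 (2.61). Eng was above 0 in 42.7% of the other cells. Cldn5, the claudin of endothelial tight junctions, was the gene of the list found in the fewest blood endothelial cells, 20.4%.

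**Figure D2:**
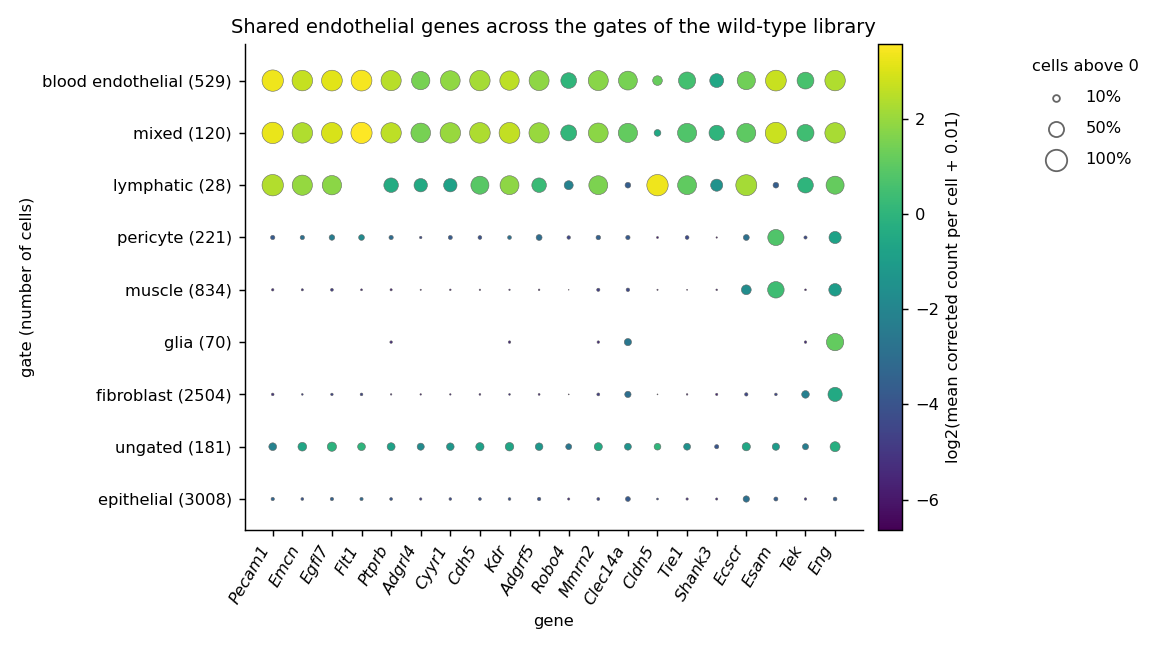
Mean corrected count (colour, log2 after adding 0.01) and share of cells above 0 (dot area) of the 20 shared endothelial genes (x axis, by falling ratio) in the gates of the wild-type library (y axis, cell numbers in parentheses). The rows of the 529 blood endothelial cells and the 120 cells of the mixed gate are alike, the 28 cells of the lymphatic gate lack Flt1 and have the highest mean of Cldn5, and Eng and Esam extend into gates without other endothelial genes.

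Epcam-low cells with Pecam1 over the limit were left out by the rule where Rgs5 or Lyve1 was over its own limit, and they are the closest comparison. The mixed gate (Pecam1 of at least 3 and Rgs5 of at least 10) held 120 cells, with a median of 3424 genes per cell. Against it 344 genes were higher in blood endothelial cells (2.38 percent of all tested) and 2561 were lower (17.8 percent). Of the 20 shared endothelial genes 1 was higher and none lower, with a median log2 ratio of -0.02, while all 9 pericyte genes other than Rgs5, which defined the gate, were lower, with a median of -5.65. Pdgfrb, the PDGF receptor of mural cells, had means of 0.0624 in blood endothelial cells and 3.62 in the mixed gate, and Notch3 0.0246 and 3.26. The mixed cells thus carried both programmes and more genes per cell, and whether they are doublets was not tested, as the doublet caller marked too few cells to be used.

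The lymphatic gate (Lyve1 of at least 3) held 28 cells, against which 4682 genes were higher (32.5 percent) and 1406 lower (9.75 percent). With 28 cells many genes are at 0 there, and a count of 0 allows a share of up to 10.7%. Of the leading 30 genes, only Lrg1 and Aqp1 had a mean at least as high in the lymphatic gate. Lrg1 averaged 2.04 there against 2.01 in blood endothelial cells, and Aqp1 3.64 against 2.66. Of the shared endothelial genes 11 were higher in blood endothelial cells and 1, Cldn5, lower. Flt1 was at 0 in all 28 cells and so at least 102-fold higher in blood endothelial cells, measured against a limit of 3 counts over the gate. On the same limit Rgcc, a cell cycle regulator, was at least 42.5-fold higher, Esm1 34.0-fold, Selp (P-selectin) 22.9-fold, the transcription factor Sox17 16.8-fold, Vwf 13.8-fold and Pdgfb 10.4-fold. All 9 lymphatic genes other than Lyve1, which defined the gate, were lower, with a median log2 ratio of -5.25. Prox1, the transcription factor of lymphatic fate, averaged 0.0662 against 2.14, and Flt4, the receptor for VEGF-C, 0.267 against 5.54. Flt4 was above 0 in 106 of the 529 blood endothelial cells (16.7% to 23.7%), and against all other Epcam-low cells it was the 1 gene of the lymphatic list that was higher.

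Markers of other cell types were mostly lower than in the other Epcam-low cells, which contain those cell types. All 10 fibroblast and all 10 smooth muscle genes were lower, and 9 of 10 glial genes. Without Rgs5 and Lyve1, which the rule limited, 8 of 9 pericyte and 6 of 9 lymphatic genes were lower. They were not all at 0, and the fibroblast list summed to a median of 5 corrected counts per blood endothelial cell (up to 386) and the smooth muscle list to 1 (up to 450). A sum of at least 50 for smooth muscle or 60 for fibroblast genes was reached by 48 cells (9.07%). Of 11 epithelial genes other than Epcam none was called, and the summed level of the list with Epcam had a median of 10 per cell. Krt8, an epithelial keratin, was above 0 in 78.1% of the cells with a mean of 1.54, and in 54.0% of the other cells with a mean of 1.20. Of the immune list 3 of 10 genes were lower and 1, Lcp1, an actin-bundling protein, was higher, and Lcp1 was above 0 in 17.0% of the cells. Of 7 platelet and red cell genes 5 were lower. The part of such RNA in the results was not tested beyond leaving out the cells that carried most of it. Whether the correction of the deposited values changed the shares above 0 was not tested.

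The transcription factors known from endothelial cells were higher in 21 of 25 cases and lower in 1, with a median log2 ratio of 2.77. The SRY-related factors Sox18, Sox17 and Sox7 had the largest ratios, with means of 3.21 against 0.125 (4.57), 1.80 against 0.0869 (4.23) and 0.747 against 0.0328 (4.14). Hhex, a homeobox factor, had 0.507 against 0.0245 (3.90) and Gata2 0.739 against 0.0419 (3.85). The ETS factors Erg, Fli1 and Ets1 had log2 ratios of 3.32, 3.29 and 1.93. Klf2, the factor induced by flow, was above 0 in 98.7% of the cells and had a mean of 14.4 against 3.32 (2.11), while its relative Klf4 stayed under the limit with 8.81 against 4.63 (0.93). Foxf1, a forkhead factor of gut mesenchyme, was the gene that was lower, with 0.607 against 2.29 (-1.90). Nr2f2, the factor of venous identity, had 0.599 against 0.711 (-0.24).

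For the VEGF pathway, 4 of 5 receptors and none of 4 ligands were higher. Of the receptors Flt1, Kdr, the co-receptor Nrp1 (4.32 against 1.01, log2 ratio 2.09) and Flt4 were higher, while the co-receptor Nrp2 had 1.02 against 1.71 (-0.74). Of the ligands Vegfa (0.267 against 0.562, -1.05), Vegfb (0.0643 against 0.317, -2.14) and Pgf (0.0246 against 0.0622, -1.06) were lower, and Vegfc had 0.422 against 0.332. Of the angiopoietin system the receptors Tek (log2 ratio 2.94) and Tie1 (1.43 against 0.0879, 3.88) were higher along with Ptprb. Angpt1, the activating ligand of Tek, was lower, with 0.00945 against 0.142 (-2.97), and Angpt4 was at 0 in all 529 cells, which allows a share of up to 0.567%.

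Of 6 PDGF genes 1 was higher and 4 were lower. The ligand Pdgfb was higher, with a mean of 1.12 against 0.0829 (12.1-fold with 0.01 added to each), and was above 0 in 48.4% of the cells. Both receptors were lower, Pdgfra with 0.166 against 2.79 (-3.99) and Pdgfrb with 0.0624 against 0.902 (-3.66), and so were the ligands Pdgfa and Pdgfc, while Pdgfd had 0.331 against 0.223 (0.55). Pdgfrb averaged 3.13 in the 221 cells of the pericyte gate.

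Of 15 Notch genes 10 were higher and 3 lower. Among the ligands Jag2 (0.363 against 0.0184, log2 ratio 3.71) and Dll4 (0.614 against 0.0558, 3.25) had the largest ratios, Dll1 had 1.01 and Jag1 0.90. Of the receptors Notch4 (0.329 against 0.0313, 3.04) and Notch1 (1.64 against 0.242, 2.71) were higher, and Notch2 (0.0435 against 0.435, -3.06) and Notch3 (-2.79) were lower. The target genes Hey1, Hey2 and Nrarp were higher, with ratios of 2.02, 1.59 and 2.54, Heyl was lower with -2.23, and Hes1 was at 6.00 against 5.92.

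Growth factors of the crypt niche were found mainly outside the endothelium. Of 21 Wnt, R-spondin, BMP and other growth factors and their inhibitors 19 were lower, with a median log2 ratio of -3.05, and 1, the Wnt inhibitor Dkk2, was higher at 1.00 (0.0851 against 0.0374). The R-spondin Rspo3, a Wnt amplifier, averaged 0.00756 against 0.135, and the Wnt ligand Wnt5a 0.0624 against 0.817. Of 22 BMP and TGF-beta genes 6 were higher and 8 lower. The higher ones were the ligand Tgfb1 (1.15), the receptors Acvrl1 (1.20) and Bmpr2 (1.18), Eng, and the targets Id1 (7.48 against 2.95, 1.34) and Smad7 (1.18). The lower ones included the ligands Bmp2 (-3.47), Bmp4 (0.796 against 6.00, -2.90) and Bmp6 (-2.16) and the receptor Bmpr1a (-3.41). Of 11 Wnt receptors and targets 4 were higher, among them the receptor Fzd4 (1.67) and its partner Tspan12 (2.73), and 2 were lower, Lef1 (-2.51) and Axin2 (-1.07), which are transcriptional targets.

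Genes of junctions and transport were higher in more than the background share. Of 19 junction genes other than Pecam1, 14 were higher and none lower, with a median log2 ratio of 1.63. Besides Cdh5 they include Esam (6.55 against 0.617, log2 ratio 3.39), an adhesion molecule, and Gja4 (1.01 against 0.113, 3.05) and Gja5 (0.0945 against 0.00556, 2.75), connexins of arterial endothelium. Of 18 permeability and transport genes 11 were higher and 1 lower. The fatty acid receptor Cd36 had 4.23 against 0.379 (3.44) and Gpihbp1, which carries lipoprotein lipase across capillaries, 0.919 against 0.0622 (3.69). Lpl, the lipase itself, was the gene that was lower, with 0.0605 against 1.19 (-4.08). Mfsd2a, the lipid transporter of the blood-brain barrier, was above 0 in 0.189% of the cells.

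Of 23 genes of coagulation and vascular tone 11 were higher and 3 lower. Ace, the angiotensin-converting enzyme, had 2.33 against 0.114 (log2 ratio 4.23), Nos3, the endothelial nitric oxide synthase, 0.456 against 0.0306 (3.52), and S1pr1, a sphingosine phosphate receptor, 1.78 against 0.0915 (4.14). Edn1, the vasoconstrictor endothelin, was above 0 in 24.6% of the cells, with 0.851 against 0.102 (2.94). The lower genes include Ptgis, the prostacyclin synthase (-3.22), and Tfpi, an inhibitor of coagulation (-1.30). Of 20 guidance genes 12 were higher and 5 lower, with Robo4 (4.22), Sema7a (3.84), Sema3g (3.66) and the ephrin Efna1 (3.59) at the top.

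Of 21 basement membrane genes 1 was higher, 8 were lower and 12 lay within 2-fold, with a median log2 ratio of 0.14. Igfbp7, a secreted binding protein, was the higher one, with 70.2 against 30.3 (log2 ratio 1.21). The vascular collagen IV chains were not called, Col4a1 with 7.02 against 6.37 (0.14) and Col4a2 with 4.53 against 3.31 (0.45). Fn1 (1.19 against 8.81, -2.88), Col18a1 (-2.63) and the laminin chain Lamc1 (-1.62) were lower.

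MHC class I genes were higher and class II genes rested on 1 cell. Of 16 antigen presentation genes 11 were higher and none lower, with a median log2 ratio of 1.37. B2m, the class I light chain, had 16.4 against 6.25 (1.39), H2-K1 15.8 against 4.80 (1.71) and H2-D1 21.3 against 8.32 (1.35), and all 3 were above 0 in every blood endothelial cell. H2-K1, H2-D1, H2-Q4 and H2-Q7 are near-identical genes whose reads can be split or lost in counting. Psmb9, a subunit of the immunoproteasome, had 1.32 against 0.315 (2.03), and Nlrc5, the activator of class I genes, 0.0870 against 0.00733 (2.48). The class II gene Cd74 had a mean of 1.30, which fell to 0.0701 without the cell that had Ptprc. H2-Aa fell from 0.401 to 0.0322 in the same way, H2-Ab1 from 0.571 to 0.110 and H2-Eb1 from 0.431 to 0.0417.

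Of 17 genes of leukocyte adhesion and recruitment 9 were higher and 2 lower. Icam2, an adhesion molecule of resting endothelium, had 1.55 against 0.0664 (log2 ratio 4.35) and Podxl, a sialomucin, 4.35 against 0.192 (4.43). Selp had 2.45 against 0.0258 (6.10), Madcam1 1.16 against 0.0177 (5.40), Ackr1, the chemokine carrier of venules, 2.14 against 0.0970 (4.33) and Sele, E-selectin, 0.119 against 0.000758 (3.58), where the other cells held 3 counts. These 4 genes were found in few of the cells: Selp in 16.6%, Madcam1 in 13.4%, Ackr1 in 17.4% and Sele in 4.54%. Ccl2, a monocyte chemokine, was lower, with 0.0170 against 0.393 (-3.90).

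Of 16 genes of dissociation and stress 4 were higher and none lower: Hspb1 (19.1 against 4.01, log2 ratio 2.25), Ier3 (1.43), Zfp36 (1.09) and Dnajb1 (1.02). Fos, Jun and Egr1 had ratios of 0.18, 0.30 and 0.23. Of 12 proliferation genes 1, Pcna, was higher (0.694 against 0.333, 1.04) and 4 were lower. Mki67, a marker of cycling cells, was above 0 in 1.13% of the blood endothelial cells and 1.62% of the others. Mitochondrial genes gave a median of 8.21% of a cell's total, and 180 cells (34.0%) exceeded 10%.

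**Figure D3:**
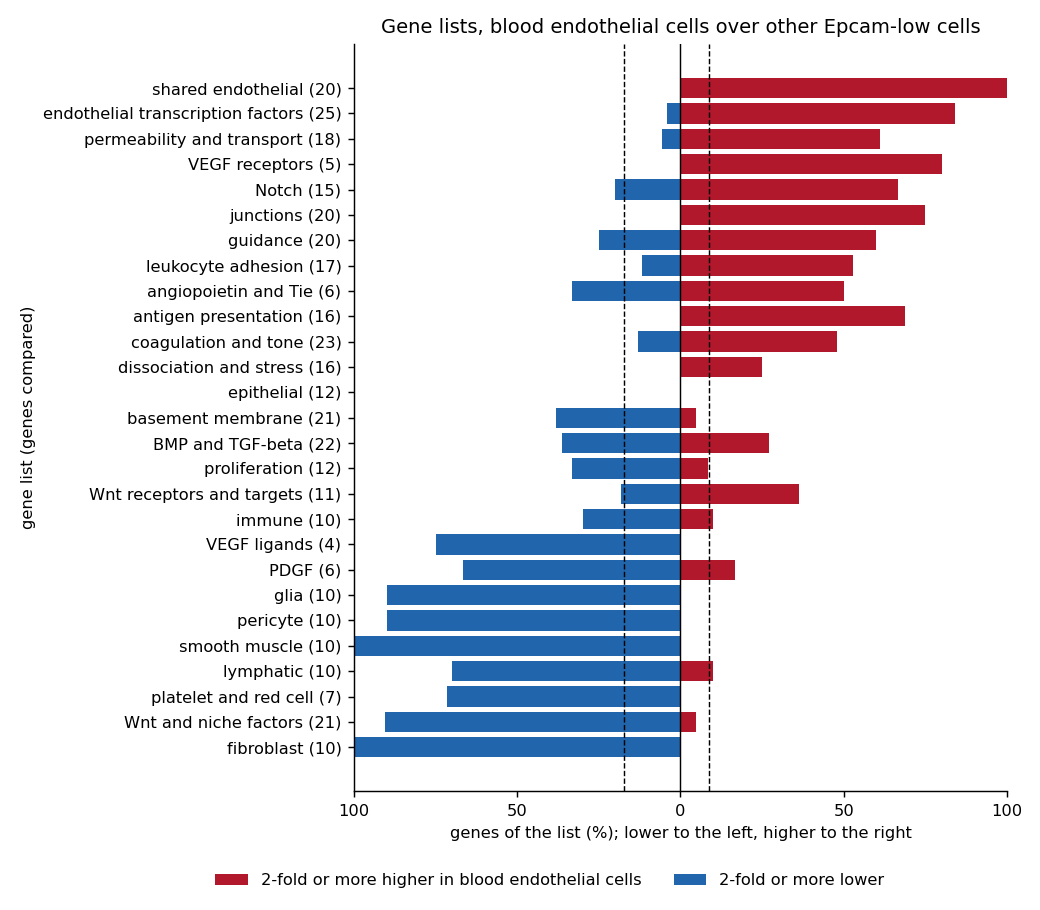
Percentage of the genes of each list (y axis, number of genes compared in parentheses, ordered by median log2 ratio) that were at least 2-fold higher (red, to the right) or lower (blue, to the left) in blood endothelial cells than in other Epcam-low cells. Dashed lines mark the same percentages over all genes, 8.63 higher and 17.4 lower. The shared endothelial list is wholly higher, the fibroblast and smooth muscle lists are wholly lower, and no epithelial gene is past the limit.

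The genes with the lowest ratios, among those found in at least 20% of the other cells, all had higher means in the fibroblast gate than in blood endothelial cells. They include Igfbp6, an insulin-like growth factor-binding protein (0.164 against 4.69, log2 ratio -4.75), Srpx2 (-4.67), the eotaxin Ccl11 (-4.59) and Medag (-4.58). Pdpn, podoplanin (-4.34), Mfap4 (-4.32), Ms4a4d (-4.29), Adamdec1 (-4.26) and Entpd2 (-4.22) were also among the lowest 10. Adamdec1 was still above 0 in 35.9% of blood endothelial cells, with a mean of 0.987. Some of these genes had a higher mean in another gate than in the fibroblast gate. Entpd2 averaged 7.23 in the glia gate and 2.43 in the fibroblast gate. Ccl11 averaged 5.54 in the pericyte gate against 3.50, and Pdpn 3.46 in the lymphatic gate against 2.64.

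The blood endothelial cells were not uniform. They were split by genes that the rule did not use: a cell was placed in the arterial sub-gate if Gja4, Gja5 and Sema3g summed to at least 2, in the venous sub-gate if Ackr1, Selp and Vwf did, and in the capillary sub-gate if Esm1, Apln and Kcne3 did, provided that no other set reached 2. This placed 58 cells (8.43% to 13.9% of the 529) in the arterial, 101 (19.1%, 15.8% to 22.7%) in the venous and 141 (26.7%, 22.9% to 30.6%) in the capillary sub-gate. A further 94 cells (17.8%) reached the sum in several sets and 135 (25.5%) in none. Of the 94 cells, 68 were arterial and capillary at once, 8 arterial and venous, 7 venous and capillary, and 11 all 3. By count, the arterial and capillary sets thus overlapped in more cells than either did with the venous set. The sets differ in size, as 145 cells reached the arterial, 227 the capillary and 127 the venous sum. The overlap expected from these sizes was not computed. Each sub-gate was then read by other genes, and the genes that defined it are no finding. The sub-gates are cuts through a range of values and need not be cell types. The capillary set was listed as genes of angiogenic capillaries and rested on Esm1. Of the 141 cells Esm1 was above 0 in 138, Kcne3 in 4 and Apln in 2. Capillary cells low in these genes would lie outside that sub-gate.

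The cells that each sub-gate was compared with include those that reached its sum along with another set's. Of the cells that reached a sum, 101 of 127 venous, 141 of 227 capillary and 58 of 145 arterial cells were in the sub-gate. Median ratios of the 3 are therefore not directly comparable. With that limit, the venous readout list had the largest median ratio of the 3 readout lists in its own sub-gate. Over the other 428 blood endothelial cells 1461 genes were higher (10.1 percent of those tested) and 1399 lower (9.7 percent), and of 16 venous genes not used for the split 13 were higher and none lower, with a median log2 ratio of 3.43. Madcam1 (chromosome 10, 79664559 to 79668537) had a mean of 6.06 and was above 0 in 71 of the 101 cells (70.3%, 60.4% to 79.0%). It was at 0 in all 428 other blood endothelial cells, which allows a share of up to 0.701%, so its mean was at least 864-fold higher on a limit of 3 counts. Sele, above 0 in 23.8% of venous cells, and Upk3bl, a uroplakin-like protein above 0 in 30.7%, were also at 0 in the other 428 cells, at least 89.0-fold and 112-fold higher. In the rest of the wild-type library Madcam1 was above 0 in 3 cells of the mixed gate, 1 of the fibroblast gate, 2 ungated cells and 12 of the 3008 cells of the epithelial gate.

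Of 15 genes of leukocyte adhesion and recruitment not used for the split, 8 were higher in venous cells and 3 were lower, with a median log2 ratio of 1.65. The 8 were Icam1, Vcam1, Sele, Madcam1, Cxcl1, Cxcl9, Cxcl10 and Ccl2, of which the first 4 also stand in the venous list. The lower ones were Podxl, with means of 0.950 in venous, 5.02 in arterial and 5.22 in capillary cells, Cxcl12 and Cx3cl1. Lrg1 averaged 9.88 in venous and 0.154 in the other blood endothelial cells, and was above 0 in 87.1% and 9.35% of them. Cxcl10, an interferon-induced chemokine, averaged 9.26 and 0.0607, but was above 0 in 38.6% and 2.10% of them. Icam1, the ligand of leukocyte integrins, was above 0 in 87.1% of venous cells (79.0% to 93.0%), 44.8% of arterial and 33.3% of capillary cells. Vcam1 was above 0 in 39.6%, 6.90% and 2.84% of the same groups, and Il6st, the shared receptor of the interleukin 6 family, in 97.0%, 51.7% and 58.2%. Nr2f2, the venous factor, was above 0 in 78.2% (68.9% to 85.8%), 8.62% and 8.51%. Adgrg6, an adhesion receptor, averaged 1.92 in venous cells and 0.00234 in the other 428 cells, where it was 1 count.

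Shared endothelial genes also differed between the sub-gates. Cldn5 (chromosome 16, 18776847 to 18778262) was above 0 in 75.2% of venous cells (65.7% to 83.3%), 11 of the 58 arterial cells and 1.42% of capillary cells (0.172% to 5.03%), with means of 8.32, 2.29 and 0.270. Kdr had the reverse order, above 0 in 46.5% of venous cells with a mean of 1.03, in 86.2% of arterial cells with 4.28 and in 134 of the 141 capillary cells with 9.72. Aqp1 averaged 11.9 in venous, 0.534 in arterial and 0.0567 in capillary cells, and Fabp4 60.5, 34.1 and 27.5 in the same order. The intervals given for Cldn5 cover counting error within 1 pooled library and are no test between the sub-gates. Kdr also stands in the capillary readout list. Pdgfb was above 0 in 14.9% of venous, 63.8% of arterial and 57.4% of capillary cells. In each of these 3 sub-gates Flt1 and Cdh5 were detected in 89.4% or more of cells, so the split did not separate cells with an endothelial programme from cells without.

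Venous cells had a higher median of genes per cell, 2594, than arterial (2084) and capillary cells (2035), and a lower mitochondrial share, 5.99% against 8.70% in each of the others. Epcam was above 0 in 30.7% of venous cells and in 82.3% of capillary cells, and the epithelial list summed to a median of 4 and 10. With every cell thinned to 6000 corrected counts, Madcam1 was above 0 in 65.3% of venous cells, Cldn5 in 73.3% of venous and 0.709% of capillary cells, Kdr in 40.6% and 94.3%, and Epcam in 27.7% and 68.1%. The order of the sub-gates was kept for these 4 genes. As the values had already been brought to a common depth, thinning cannot show the part of depth before that correction. Of the 10 fibroblast genes 7 were above 0 in a smaller share of venous than of capillary cells, among them Dcn, decorin (26.7% against 90.8%), Col1a2 (16.8% against 77.3%) and Col3a1 (31.7% against 90.1%). The fibroblast list summed to a median of 2 in venous, 5 in capillary and 6 in arterial cells, while the mean of Dcn was 4.60 in venous and 3.89 in capillary cells. The part of epithelial and fibroblast RNA in the differences between sub-gates was not tested. Nor was it tested whether the correction of the deposited values changed these shares above 0. The lymphatic list summed to a median of 5 in venous cells and 0 in the other sub-gates, carried by Fgl2 (66.3% of venous cells) and Fxyd6 (80.2%), while Prox1 was above 0 in 9.90% and Lyve1 in 2.97%.

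In the capillary sub-gate 333 genes were higher than in the other blood endothelial cells (2.31 percent) and 1554 lower (10.8 percent). Of 17 capillary genes not used for the split 3 were higher and 1 lower, with a median log2 ratio of 0.52. This was smaller than the median of the venous list in its own sub-gate, under the limit on such comparisons given above. The leading genes were Fam167b (0.837 against 0.242, 1.75), Gpx8, a peroxidase of the endoplasmic reticulum (0.858 against 0.250, 1.74), Nrp1 (7.30 against 3.23, 1.17), Kdr (9.72 against 4.40, 1.14) and Hmbox1, a homeobox factor (1.18 against 0.536, 1.13). The venous genes were lower here in 10 of 16 cases and higher in none, with a median of -2.75, which follows in part from the rule that no capillary cell could reach the venous sum. Igfbp7 averaged 103 in capillary, 51.6 in arterial and 25.8 in venous cells, and Plvap 35.5, 19.6 and 23.4. Col4a1, a collagen chain of the basement membrane, averaged 9.96, 5.67 and 1.82, and Cxcl12, a chemokine of arterial and capillary endothelium, 16.2, 11.7 and 1.42. For these 4 genes the highest mean was in the capillary sub-gate, where the fibroblast genes named above were also found in more cells than in the venous one. Without the cells high in muscle or fibroblast genes the capillary and venous means were 9.85 and 1.74 for Col4a1, 16.4 and 1.18 for Cxcl12, and 106 and 26.2 for Igfbp7.

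Genes of arteries had a smaller median ratio in their sub-gate than the venous genes had in theirs, under the same limit. In the arterial sub-gate 1534 genes were higher than in the other blood endothelial cells (10.6 percent) and 1427 lower (9.89 percent), and of 16 arterial genes not used for the split 10 were higher and none lower, with a median log2 ratio of 1.06. Sox17 averaged 3.29 in arterial, 1.72 in venous and 1.13 in capillary cells, and was above 0 in 75.9%, 59.4% and 48.9%. Jag1 averaged 1.45, 0.475 and 0.248 and the elastic fibre protein Fbln5 3.36, 1.02 and 0.0851. Jag1 was above 0 in 31.0%, 32.7% and 14.9%, so only its mean, and not its share, was higher in arterial than in venous cells. The means of Efnb2 and Cxcl12, which are also in the arterial list, were higher in capillary than in arterial cells. The 5 leading genes were S100a4, a calcium-binding protein (1.14 against 0.174, 2.64), Fbln5 (2.22), the kinase Cdk19 (2.09) and the contractile genes Tpm2 (1.90) and Tagln (1.87). The smooth muscle list summed to a mean of 35.5 per arterial cell, against 12.4 over all blood endothelial cells and a median of 1 in both. Without the 48 cells high in muscle or fibroblast genes, 47 of the 58 arterial cells remained, and S100a4 (3.27), Fbln5 (2.27) and Cdk19 (1.77) stayed over 2-fold. Tpm2 then had a ratio of 0.45. Of the arterial list, Bmx, Hey1, Dll4, Efnb2, Fbln2, Vegfc and Cxcl12 were then under 2-fold, with ratios of 0.09 (Efnb2) to 0.93 (Dll4). The other genes of that list were over 2-fold, among them Sox17 (1.09) and Jag1 (1.31). Tagln is itself part of the sum that left those cells out, so its value without them is not read.

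The cells that reached no set resembled the capillary cells in the shares above 0 of Cd300lg and Rgcc. Cd300lg, the mucin-like endothelial protein nepmucin, was above 0 in 78.5% of them and in 80.9% of capillary, 44.8% of arterial and 6.93% of venous cells. Rgcc was above 0 in 84.4%, 86.5%, 77.6% and 33.7% in the same order. Aplnr, the apelin receptor, was above 0 in 33.3% of cells with no set and in 14.2%, 13.8% and 18.8%. Some means lay further apart, with Kdr at 5.30 in cells with no set and 9.72 in capillary cells, and Plvap at 23.2 and 35.5. Those of Rgcc were 5.70 and 6.31. The group without a set also held the cell with Ptprc, and 6 of the 11 cells with fewer than 5 shared endothelial genes.

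**Figure D4:**
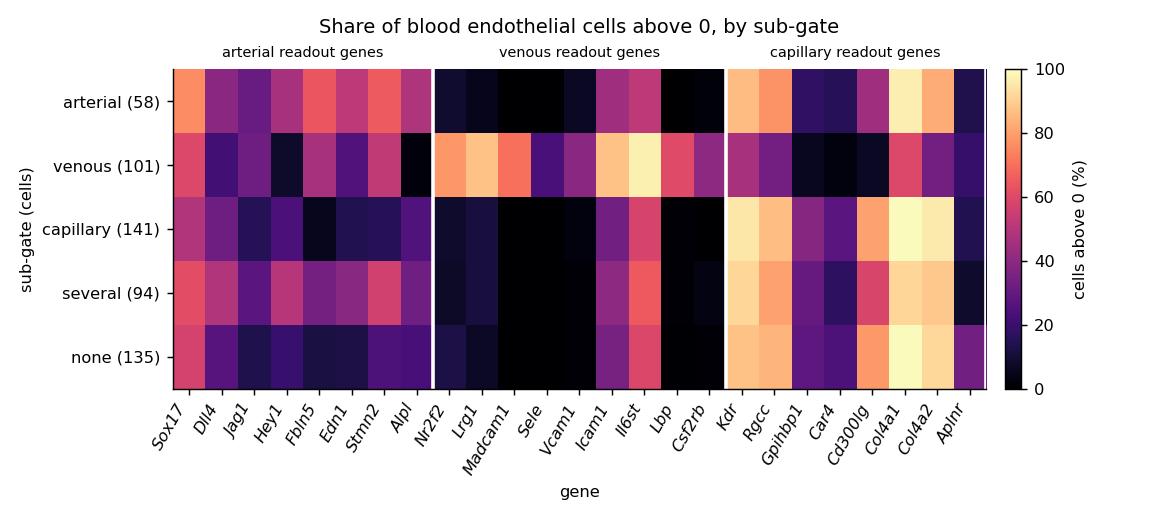
Share of cells above 0 (colour, %) for arterial, venous and capillary genes that were not used for the split (x axis, in 3 blocks), in the 5 groups of the 529 blood endothelial cells (y axis, cell numbers in parentheses). The venous row is bright for Nr2f2, Lrg1 and Madcam1 (78.2%, 87.1% and 70.3%) and dark for Car4 and Cd300lg (2.97% and 6.93%), and Madcam1 and Sele are at 0 in the other 4 rows.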

How the data were processed

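Single-cell RNA-seq (10x Genomics 3′ chemistry) was measured in 2 libraries, each from 3 pooled mice. According to the methods and the labels, reads were counted with Cell Ranger 3.0.1 on mm10, and cells were filtered and normalised with SCTransform in Seurat 3.1 under R 3.6.2. The values deposited by the authors as raw are whole numbers and are treated here as a score: UMI counts corrected to a common depth by SCTransform, so no count model was applied. A second deposited table held the natural log of 1 plus the same value. Of the 7495 wild-type cells, 7394 met the stated limits of 500 to 7500 genes and under 25% mitochondrial reads when these were applied to the corrected values, and all 529 blood endothelial cells did. All cells were kept.

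Gates were applied in order to the corrected values, with pericytes by Rgs5 of at least 10, muscle by Myh11 of at least 5, glia by S100b and a second gene, not reported here, of at least 1 and fibroblasts by Col1a1 of at least 3. Genes with at least 20 corrected counts over the Epcam-low cells were compared by the log2 ratio of means with a pseudocount of 0.01, and 2-fold was the limit. Intervals are 95% Clopper-Pearson intervals, and a count of 0 is read as fewer than 3 cells or counts. Shares that a count of 0 is said to allow follow that reading and lie below the upper end of the interval. For Madcam1 in 428 cells these are 0.701% and 0.858%. Genes named are those of the gene lists, the 30 largest ratios among genes in at least 20% of the cells, the 10 lowest among genes in at least 20% of the others and the 5 largest of each sub-gate among genes in at least 30% of it. Members and lists were chosen with earlier results of these data known. Genes brought in outside this rule were chosen after their values were seen. Scrublet called 7 cells (0.0934%) and none of the 529, too few to have worked, so doublets were kept. Gene positions are those of GENCODE M21 (GRCm38), where 97.7% of symbols matched. The ratio calculation was tested on simulated data. Alternatives covered the limits of the rule, scale, pseudocount, gene filter, thinning and cells left out. Python 3.11.15, numpy 2.4.6, scipy 1.17.1, pandas 2.3.3, scanpy 1.11.5 and matplotlib 3.10.9 were used.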

Additional observations from a re-analysis of the deposited data

Results flagged for a closer look

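In the Pdgfra-H2B-eGFP library, which holds sorted GFP-positive mesenchyme and entered no comparison, Pecam1 was above 0 in 27 of 4409 cells (0.612%, 95% Clopper-Pearson interval 0.404% to 0.890%). This is above the 3 cells that a count of 0 allows. The highest value was 2, under the limit of the rule, and Kdr was above 0 in 5 cells of that library. For comparison, Pecam1 was above 0 in 2.49%, Flt1 in 2.29% and Kdr in 1.66% of the epithelial gate of the wild-type library, which has a higher total per cell. In that gate 33 cells met the Pecam1, Rgs5 and Lyve1 limits, so it is no clean background.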

How the results depend on the processing

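The number of blood endothelial cells ranged from 349 without cells above 10% mitochondrial corrected counts to 677 without the Rgs5 and Lyve1 limits. Genes higher and lower numbered 102 and 103 on the mean of the natural log values, 702 and 912 with a pseudocount of 0.1 and 520 and 959 at 4-fold, against 1245 and 2514 as reported, and the median over all genes was -0.01, -0.08 and -0.21 in that order. The gene lists with a median of at least 1 fell from 15 to 2 on the mean of the natural log values. The venous share was 24.9% without the cells above 10% mitochondrial corrected counts, and the capillary share 19.3% with a selecting sum of 1. For the 400 named genes under 14 alternatives, sign changes were counted only where the reported log2 ratio was at least 1 in size. There 1 value changed sign, that of Hbb-bs, a haemoglobin gene. It was 0.0053 on the mean of the natural log values against -2.98. The cause was not tested in any of these. The median of the shared endothelial list was 5.92 without the lymphatic and mixed gates, 6.35 against cells with Pecam1 at 0, and 1.78 on the mean of the natural log values. The immune list went from -0.67 to -2.20 without the cell with Ptprc, a gene of that list. The fibroblast list went from -3.62 to -4.88 and the smooth muscle list from -2.59 to -5.95 without cells high in muscle or fibroblast genes, a change that the choice of those cells by the same lists fixes in direction. Leaving out those 48 cells, cells with under 5 endothelial genes, or the lymphatic and mixed gates was chosen after seeing the data, as were the list counts without the genes of the rule. No paired analysis was possible because each condition was 1 library. With pooled mice, the spread between animals is unknown, and all intervals cover counting error in corrected values.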
